A study of Mus musculus with 15 samples.

Results

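The EGF family was followed through 10 genes, the 7 ligands Areg, Ereg, Hbegf, Tgfa, Btc, Epgn and Nrg1 and the 3 receptors Egfr, Erbb2 and Erbb3, as the ligand supply of pancreatic stellate cells and the receptors of pancreatic cancer cells. Members were chosen by name: a probe belonged to the family if the gene name in the scanner files was one of these symbols, which gave 22 of the 56605 probes and 10 of the 37008 gene names on the array. RNA of mouse cells was hybridised to 15 single-colour Agilent arrays, 3 for each of 5 groups. Stellate cells, the fibroblast-like cells that deposit the scar around pancreatic tumours, were taken from mice that were wild type (PSC WT) or heterozygous (PSC HT) and had been cultured over 2 weeks to activation. Cancer cells had received control medium, medium conditioned by PSC WT or medium conditioned by PSC HT over 24 h. Which locus was heterozygous, which cancer cell line was used, and whether replicates came from separate animals or cultures are not given in the sources used here, so p-values cover only how far these samples differ within a group, and that spread may be technical.

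Ligands of this family are made as membrane-bound precursors and are released by metalloproteases. Amphiregulin (Areg), transforming growth factor alpha (Tgfa) and epigen (Epgn) bind the EGF receptor Egfr, epiregulin (Ereg), heparin-binding EGF (Hbegf) and betacellulin (Btc) bind Egfr and Erbb4, and neuregulin 1 (Nrg1) binds Erbb3 and Erbb4. Erbb2 has no known ligand and is the preferred partner of the other receptors, while Erbb3 has a weak kinase and signals mainly when paired with Erbb2. In the pancreas, Egfr signalling is known for its part in acinar-to-ductal change and in tumours, and its output runs largely through the kinase ERK.

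Epgn, Ereg, Areg and Btc are consecutive protein-coding genes on chromosome 5 by RefSeq order, and their array probes start 61.2, 47.5 and 217.0 kb apart in build mm9. The 250 bases before the annotated start sites of Areg, Btc and Epgn (RefSeq, GRCm38.p6) are shown because Areg and Btc were measured in the cancer cells and their neighbour Epgn was not. Capitals mark the core TGACG of the cAMP response element, searched on both strands so that CGTCA is the same match, and the TATA box TATAA.
Areg, chr5:91139349-91139598, plus strand: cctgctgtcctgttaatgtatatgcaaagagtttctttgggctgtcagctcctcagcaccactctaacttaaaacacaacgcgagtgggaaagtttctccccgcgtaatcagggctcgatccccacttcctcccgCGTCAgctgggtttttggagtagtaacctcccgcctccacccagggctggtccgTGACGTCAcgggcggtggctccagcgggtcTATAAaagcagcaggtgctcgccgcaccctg
Btc, chr5:91402995-91403244, minus strand: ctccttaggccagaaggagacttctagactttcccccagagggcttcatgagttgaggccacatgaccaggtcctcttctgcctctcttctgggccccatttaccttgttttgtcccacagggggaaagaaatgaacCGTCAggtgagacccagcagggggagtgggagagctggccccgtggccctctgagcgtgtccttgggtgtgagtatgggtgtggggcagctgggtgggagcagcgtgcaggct
Epgn, chr5:91027267-91027516, plus strand: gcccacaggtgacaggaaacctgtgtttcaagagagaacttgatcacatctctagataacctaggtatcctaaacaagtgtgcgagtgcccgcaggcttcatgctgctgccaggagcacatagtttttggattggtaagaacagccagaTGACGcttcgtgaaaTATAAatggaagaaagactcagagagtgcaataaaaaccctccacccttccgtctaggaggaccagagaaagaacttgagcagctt
The Areg window held 3 TGACG matches, of which TGACG at bases -61 to -57 and CGTCA at -58 to -54 overlap each other, and a TATAA at -31 to -27 from the start site. The Btc and Epgn windows held 1 TGACG match each, and Epgn also a TATAA. Of 32851 promoter windows of the same length, 17.8% held TGACG and 22.8% held TATAA. The AP-1 site TGANTCA and the SRE core (the CArG box) were in none of the 6 member windows that the table holds (Areg, Tgfa, Btc, Epgn, Egfr and Erbb2), against 6.7% and 1.5% of all windows. A match describes letters in these windows only.

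Several probes report the same gene from different places, and the results for Nrg1 and Erbb3 turn on which probe was read. Nrg1 had 5 probes and Erbb3 had 2, all on the minus strand in build mm9. The first 30 of the 60 bases of 3 Nrg1 probes and of both Erbb3 probes are given, with no base marked.
Nrg1 A_55_P1985433, chr8:32928500-32928559: gaagaattacaggccaggctgtctagtgta
Nrg1 A_52_P369769, chr8:32959791-32959850: tttctgtgtgaacggaggcgagtgcttcat
Nrg1 A_55_P2811400, chr8:33994810-33994869: ataaacaactctcctacccacccaccccca
Erbb3 A_52_P432949, chr10:128004749-128004808: gttgcagatacacactcattacaagccaat
Erbb3 A_55_P2119897, chr10:128006424-128006483: gacaaccccgattactggcatagcaggctt
The first probe listed for each gene had the highest mean signal over the 15 arrays and stood for the gene. The probes that stood for the other members (Hbegf is placed with its values) lie on the plus strand at chr5:91522553-91522612 for Ereg, chr6:86224838-86224897 for Tgfa, chr5:91461324-91461383 for Epgn, chr11:16813815-16813874 for Egfr and chr11:98298394-98298453 for Erbb2, and on the minus strand at chr5:91787139-91787198 for Btc. An mm9 gene annotation was not used here, so exons and untranslated regions are not given.

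A level is log2 of the processed signal minus the array's 75th percentile over probes, so that 0 is the brightness of that percentile on the array, and levels are compared between groups for the same probe only. A probe is called measured where the scanner software marked it as well above background. All 12 markers of activated stellate cells were measured on the 6 stellate arrays, and all 12 epithelial markers on the 9 cancer cell arrays. Some epithelial markers were also measured on the stellate arrays, 6 or 7 of 12 on PSC WT and 7 or 8 on PSC HT. Some stellate cell markers were likewise measured on the cancer cell arrays, as given below. The third PSC HT array stood apart: the epithelial cadherin Cdh1 read -1.87 there and -7.65 to -7.03 on the other 5 stellate arrays, against 4.82 to 5.08 on the cancer cell arrays, and the summed epithelial level was 35.2 against 9.58 to 22.2 in units of the 75th percentile. Macrophage and leukocyte markers summed to 81.9 to 106 on the PSC WT arrays and to 165 to 333 on the PSC HT arrays, with 16 or 17 of 17 markers measured on each. Each group had arrays on both of the 2 slides. In bulk RNA, fewer cells of a type and less RNA per cell cannot be told apart.

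**Figure D1:**
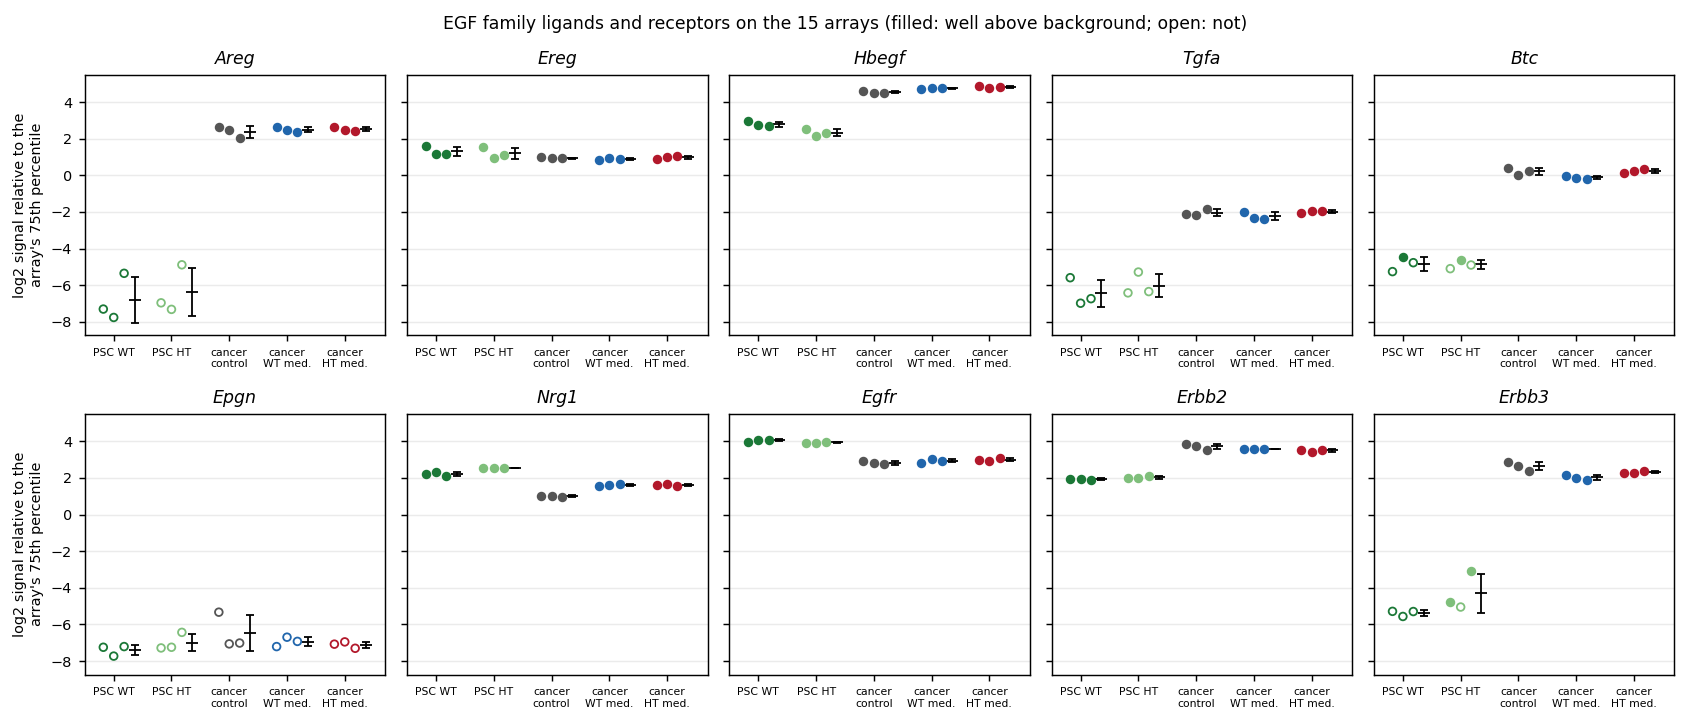
Level of each of the 10 genes on every array (vertical axis, log2 signal relative to the array's 75th percentile) by group (horizontal axis). Filled points were well above background and open points were not; bars give the group mean and SD of 3 arrays. Areg, Tgfa, Btc and Erbb3 sit far lower on the stellate arrays, Nrg1 and Egfr sit higher there, and Epgn is open on all 15 arrays.

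The first comparison set untreated stellate cells against untreated cancer cells and asked which cell carries which side of the ligand and receptor pairs. All 9 tested genes of the family were called between PSC WT and control cancer cells, 3 higher and 6 lower in the stellate cells. Areg, Tgfa, Btc and Erbb3 entered this fit through the cancer cell arrays alone. For them a lower stellate reading was largely set by that filter, and their p-values add no support to it. The cancer cells carried Areg, Btc, Tgfa and Erbb3, which were at or near background in stellate cells, and more Hbegf and Erbb2. Stellate cells carried more Nrg1 and Egfr and slightly more Ereg. In this comparison 71.2% of all 21924 genes tested passed the threshold (limma, Benjamini-Hochberg adjusted p of at most 0.05), 35.1% higher and 36% lower in PSC WT, so a call by itself sets no gene apart. For all 9 the arrays of the groups did not overlap, against 75.4% of all genes, and for Areg, Tgfa, Btc and Erbb3 the same filter bears on this.

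Areg, the amphiregulin gene, read 2.65, 2.45 and 2.02 on the control cancer cell arrays. On the PSC WT arrays it read -7.30, -7.76 and -5.35, none of them well above background. It was at least 183-fold lower in the stellate cells (adjusted p = 1.3e-05 by limma), a bound that sets the cancer cell mean against the higher of each stellate array's detection floor and its reading; all such bounds here are built this way. The probe lies at chr5:91570090-91570149 on the plus strand (mm9). All 3 PSC HT arrays were below background too, at -6.96, -7.32 and -4.89.

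Btc, betacellulin, read 0.39, 0.02 and 0.24 on the control cancer cell arrays and -5.26, -4.47 and -4.77 on the PSC WT arrays, of which 1 was well above background. It was called lower in the stellate cells (limma adjusted p = 1.43e-06), and no size is given because 2 of the 3 stellate readings were not measured levels. A second Btc probe was not well above background on any of the 15 arrays, so the Btc result rests on 1 probe.

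Tgfa read -2.12, -2.18 and -1.84 on control cancer cells, and -5.59, -6.98 and -6.74 on PSC WT, where no array was well above background. It was at least 8.56-fold lower in the stellate cells (adjusted p = 3.75e-05 by limma). The other Tgfa probe gave a bound of 5.39-fold in the same direction. Hbegf, whose product also acts as a membrane-bound ligand, was measured on every array in both cell types by the probe at chr18:36664738-36664797, minus strand (mm9). It read 4.61, 4.52 and 4.48 on control cancer cells and 2.95, 2.73 and 2.70 on PSC WT, which was 3.34-fold lower (log2 difference -1.74 ± 0.10, SE, adjusted p = 7.55e-06). The second Hbegf probe differed by -0.98 ± 0.27 (SE, adjusted p = 0.0141 with each probe tested by itself).

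Ereg, the epiregulin gene, had nearly the same level in both cell types. It read 1.59, 1.19 and 1.16 on PSC WT and 0.97, 0.92 and 0.92 on control cancer cells, so the groups did not overlap, and the difference was 0.38 ± 0.13 (log2, SE, adjusted p = 0.04 by limma). That call was lost without control array 1, 2 or 3 (adjusted p = 0.0746, 0.0901 and 0.091). Ereg is flanked by Epgn and Areg on chromosome 5, and the 3 neighbours had 3 patterns: Ereg was measured in both cell types, Areg in the cancer cells alone, and Epgn on none of the 15 arrays. Epgn read -7.73 to -6.43 on stellate arrays and -7.30 to -5.33 on cancer cell arrays and was not tested.

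Nrg1, the neuregulin gene, was the ligand that stellate cells carried at the larger excess. It read 2.24, 2.33 and 2.11 on PSC WT and 1.04, 1.00 and 0.94 on control cancer cells, a 2.34-fold difference (log2 1.23 ± 0.09, SE, adjusted p = 2.86e-05). All 5 probes pointed the same way, between 0.15 and 1.23 on the log2 scale, and 2 of them passed the threshold when each probe was tested by itself, where 70% of 33638 probes passed. The probe farthest from the others, at chr8:33994810-33994869, gave 0.15 ± 0.13 (SE, adjusted p = 0.337).

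Among the receptors, Egfr was higher in stellate cells and Erbb2 and Erbb3 in cancer cells. Egfr read 3.99, 4.10 and 4.10 on PSC WT and 2.93, 2.82 and 2.74 on control cancer cells, or 2.35-fold more (log2 1.23 ± 0.09, SE, adjusted p = 2.59e-05), and all 4 of its probes were called higher, from 1.07 to 2.77. Erbb2 read 1.95, 1.96 and 1.89 on PSC WT and 3.85, 3.76 and 3.55 on control cancer cells, 3.45-fold lower in the stellate cells (adjusted p = 7.81e-06), and its second probe differed by -1.81. Erbb3, which receives the neuregulin signal, read 2.85, 2.67 and 2.40 on control cancer cells. On PSC WT it read -5.28, -5.56 and -5.29 with no array well above background, and was at least 221-fold lower (adjusted p = 3.27e-08). The second Erbb3 probe gave a bound of 2.98-fold in the same direction.

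**Figure D2:**
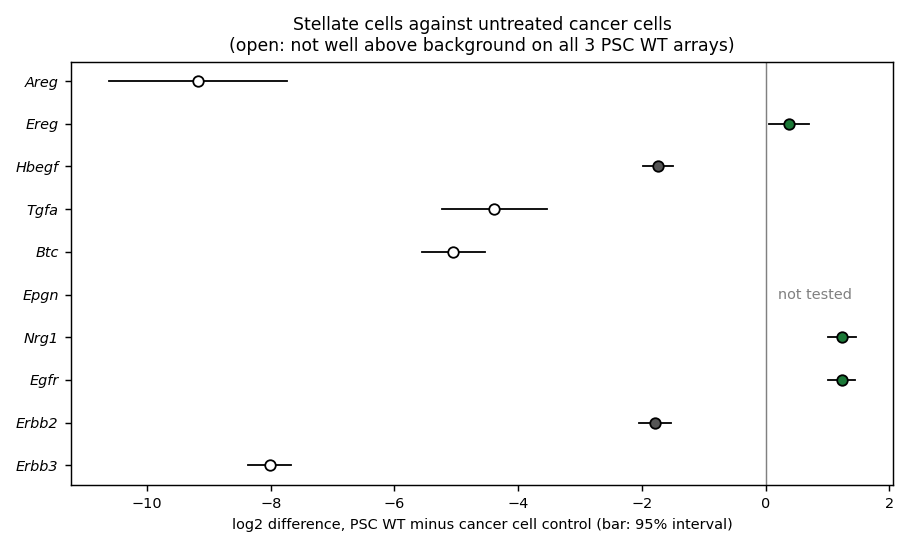
Difference between PSC WT and control cancer cells for each gene (horizontal axis, log2; bars are 95% intervals; 3 arrays a group). Open points were not well above background on all 3 PSC WT arrays. Nrg1, Egfr and Ereg lie to the right of 0 and the other 6 tested genes to the left. The open points of Areg, Tgfa, Btc and Erbb3 rest on stellate readings at background, so their place marks a direction and not a size; Areg was at least 183-fold and Erbb3 at least 221-fold lower.

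The rest of the family was sampled through 5 further genes, Egf, Nrg2, Nrg3, Nrg4 and Erbb4, of which 4 were tested here. Nrg4 (mean level -6.13 on PSC WT, none of 3 arrays well above background, and -1.49 on control cancer cells) and Nrg2 (-5.83, with 1 array above background, and -1.53) were lower in stellate cells. Erbb4, the other neuregulin receptor, was higher there (1.61 against 1.13, adjusted p = 0.0138 by limma), and Egf did not pass the threshold (adjusted p = 0.141). In this comparison 71.2% of all genes tested were called. Nrg2 and Nrg4 entered the fit through the cancer cell arrays alone, so their lower stellate reading was largely set by that filter. Of the 3 neuregulins tested, Nrg1 alone was measured on every array of both groups, and it was higher in the stellate cells.

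Genes for shedding and trafficking of ligands were called about as often as genes in general: of 17, 9 were higher and 4 lower in PSC WT, where 71.2% of all genes were called. Timp3, an inhibitor of the sheddase Adam17, averaged 7.28 against 1.63 on control cancer cells, and the metalloprotease gene Adam12 0.52 against -3.73. Adam19, another metalloprotease gene, averaged 4.92 in PSC WT and was not well above background on any control array, while the tetraspanin gene Tspan8 averaged -3.89 against 6.01. Adam19 entered the fit through the stellate arrays alone, and Rhbdl2, among the lower genes, through the cancer cell arrays alone. The direction of these calls was largely set by that filter. Of 21 ERK response genes 8 were higher and 9 lower, among the former the early response genes Egr1 (5.75 against 1.68) and Fos (4.38 against 1.23). Egr3, Etv1 and Il1rl1, also among the higher genes, were not well above background on any control array, so the same limit holds for them.

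The next 2 comparisons asked what stellate cell medium did to the family in cancer cells. Nrg1 rose in both conditioned media by about the same amount, Erbb3 fell in PSC WT medium, and Hbegf rose slightly in PSC HT medium. Neither Areg, Ereg, Tgfa, Btc, Egfr nor Erbb2 passed the threshold in either medium. The medium of PSC WT gave 2 called genes of 9 tested, 1 higher and 1 lower, where 5.75% of all 19686 genes tested were called (2.84% higher and 2.91% lower). For 4 of the 9, Hbegf, Btc, Nrg1 and Erbb3, the arrays did not overlap with those of control medium, as was so for 25.2% of all genes. The medium of PSC HT gave 2 called of 9 tested, both higher, where 5.42% of all genes were called (3.03% higher and 2.39% lower), and for 4 of the 9, Hbegf, Nrg1, Egfr and Erbb3, the arrays did not overlap, against 24.1% of all genes. These comparisons share the 3 control arrays, so their values are set side by side and are not independent of each other.

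Nrg1 was called in both media. Its levels were 1.04, 1.00 and 0.94 with control medium, 1.55, 1.64 and 1.67 with PSC WT medium and 1.62, 1.66 and 1.59 with PSC HT medium. By the probe that stood for the gene, every treated array lay above every control array and below every stellate array. The rise was 0.62 ± 0.06 with PSC WT medium (log2, SE, 1.54-fold, adjusted p = 0.000987 by limma). With PSC HT medium it was 0.63 ± 0.06 (SE, adjusted p = 0.00144), and the call held in each of the 18 alternatives run for each medium. Within slide 1 the rise was 0.56 and 0.61 in the 2 media, and within slide 2 it was 0.65 and 0.66. Activated stellate cell markers summed to 132.3 to 141.5 with control medium, 140 to 152 with PSC WT medium and 142 to 160 with PSC HT medium, in units of the 75th percentile. Of these 12 markers, 4 to 6 were well above background on the control arrays, 4 to 7 on the PSC WT medium arrays and 4 to 6 on the PSC HT medium arrays. Col3a1, Pdgfra, Pdgfrb, Fap and Des were so on none of the 9, while Thy1 was so on WT medium array 2 and HT medium array 1 and on no control array. The part of stellate cell RNA in the Nrg1 rise was not tested.

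Nrg1 probes did not all move alike. Tested one by one, 3 of the 5 were called higher with PSC WT medium, where 4.42% of 30056 probes were called, and 4 of the 5 with PSC HT medium, where 3.78% were. The probe at chr8:32959791-32959850 rose most, from -1.92, -1.76 and -1.59 to -0.89, -0.88 and -0.74 with PSC WT medium (0.92 ± 0.09, SE, adjusted p = 0.0015) and by 0.81 with PSC HT medium. In contrast, the probe at chr8:33994810-33994869 read -1.15, -0.95 and -1.29 with control medium and -1.20, -0.97 and -0.98 with PSC WT medium. Its difference was 0.08 with a 95% interval of -0.18 to 0.34, and 0.03 with PSC HT medium. By the probe at chr8:32959791-32959850, all PSC WT medium arrays lay above all stellate arrays (-1.57 to -1.46 in PSC WT and -1.26 to -0.94 in PSC HT). The probe at chr8:33994810-33994869, which barely moved, is assigned to the same transcript model as another probe, A_55_P2874801. That other probe rose by 0.75 with PSC WT medium and 0.68 with PSC HT medium. Which Nrg1 transcripts the cells made was not measured.

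**Figure D3:**
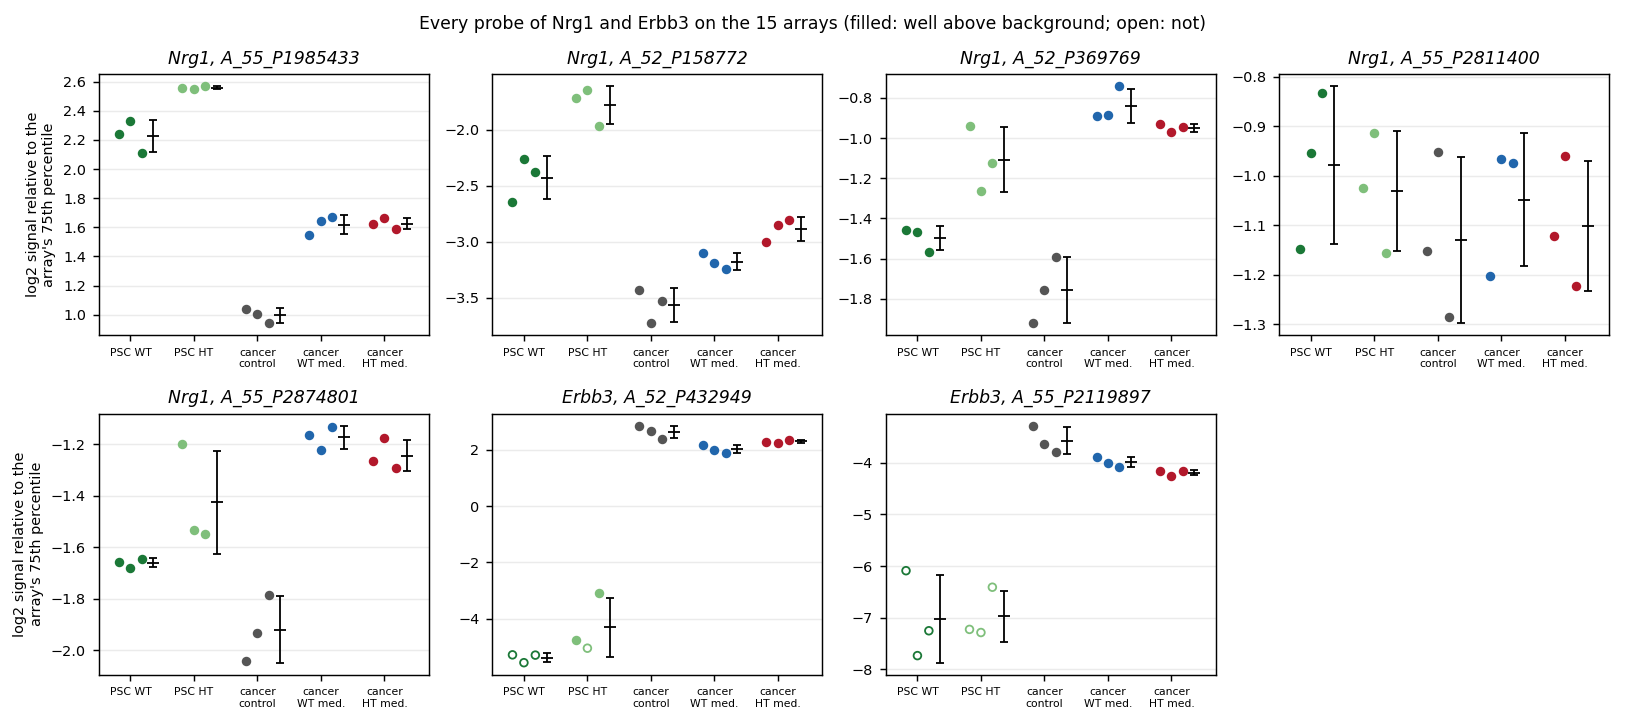
Level on every array (vertical axes, log2 relative to the array's 75th percentile, scaled separately) of the 5 Nrg1 and 2 Erbb3 probes by group; bars give mean and SD of 3 arrays, open points were not well above background. In cancer cells 4 Nrg1 probes are higher with both conditioned media than with control medium, the probe A_55_P2811400 overlaps in all 5 groups, and both Erbb3 probes are lower with conditioned medium.

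Erbb3 read 2.85, 2.67 and 2.40 with control medium, 2.18, 2.00 and 1.91 with PSC WT medium and 2.29, 2.25 and 2.37 with PSC HT medium. All 6 treated arrays lay below the lowest control array. The fall was -0.61 ± 0.12 with PSC WT medium (log2, SE, adjusted p = 0.0205 by limma). With PSC HT medium the difference was -0.34 ± 0.12 (SE, adjusted p = 0.16) and did not pass. The other Erbb3 probe gave the reverse order of calls, with -0.42 ± 0.13 in PSC WT medium (adjusted p = 0.117) and -0.62 ± 0.13 in PSC HT medium (adjusted p = 0.0349). The call in PSC WT medium was lost without WT medium array 2 or 3 (adjusted p = 0.0716 and 0.0919) or without control array 1 or 2 (0.0599 and 0.0643), and held without the other 2 arrays.

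Hbegf read 4.61, 4.52 and 4.48 with control medium, 4.73, 4.75 and 4.75 with PSC WT medium and 4.86, 4.78 and 4.80 with PSC HT medium. The 3 groups did not overlap. The rise with PSC HT medium was 0.28 ± 0.06 (log2, SE, 1.21-fold, adjusted p = 0.036 by limma), and the difference with PSC WT medium was 0.21 ± 0.06 (SE, adjusted p = 0.0933). Leaving out any 1 of the 6 arrays ended the call in PSC HT medium, with adjusted p of 0.0503 without control array 1, 0.105 without control array 2, 0.0816 without control array 3, and 0.1295, 0.0815 and 0.0933 without HT medium arrays 1, 2 and 3. The dimmer second probe of Hbegf went the other way, at -0.59 ± 0.46 (SE, adjusted p = 0.575).

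Btc was the only ligand whose levels were lower on all PSC WT medium arrays than on all control arrays, at -0.02, -0.15 and -0.18 against 0.39, 0.02 and 0.24, and the difference of -0.33 ± 0.11 did not pass the threshold (adjusted p = 0.115). With PSC HT medium it read 0.13, 0.22 and 0.34. Areg, which stellate cells did not carry above background, read 2.64, 2.47 and 2.37 with PSC WT medium and 2.63, 2.46 and 2.42 with PSC HT medium, inside the range of the control arrays. For Areg the 95% interval of the change ran from -0.23 to 0.47 in PSC WT medium and from -0.22 to 0.48 in PSC HT medium. Ereg differed by -0.05 and 0.05, Tgfa by -0.19 and 0.05, Egfr by 0.11 and 0.17, and Erbb2 by -0.13 and -0.22 in PSC WT and PSC HT medium.

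Tested directly against each other, the 2 conditioned media gave no called member among the 9 tested. Over all 19686 genes tested 0% were called by limma, and 911 (4.6%) had an unadjusted p under 0.05. For 4 of the 9, Hbegf, Btc, Erbb2 and Erbb3, the arrays of the media did not overlap, against 11.1% of all genes. Among the members, Btc and Erbb3 had an unadjusted p under 0.05. The largest member difference was that of Btc, 0.34 higher with PSC HT medium (95% interval 0.10 to 0.59, adjusted p = 0.977). Erbb3 was 0.28 higher (interval 0.00 to 0.55), while its other probe was 0.20 lower. For Nrg1 the interval ran from -0.14 to 0.15 and for Hbegf from -0.07 to 0.21. A call in one medium and not in the other is therefore not shown to be a difference between the media.

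**Figure D4:**
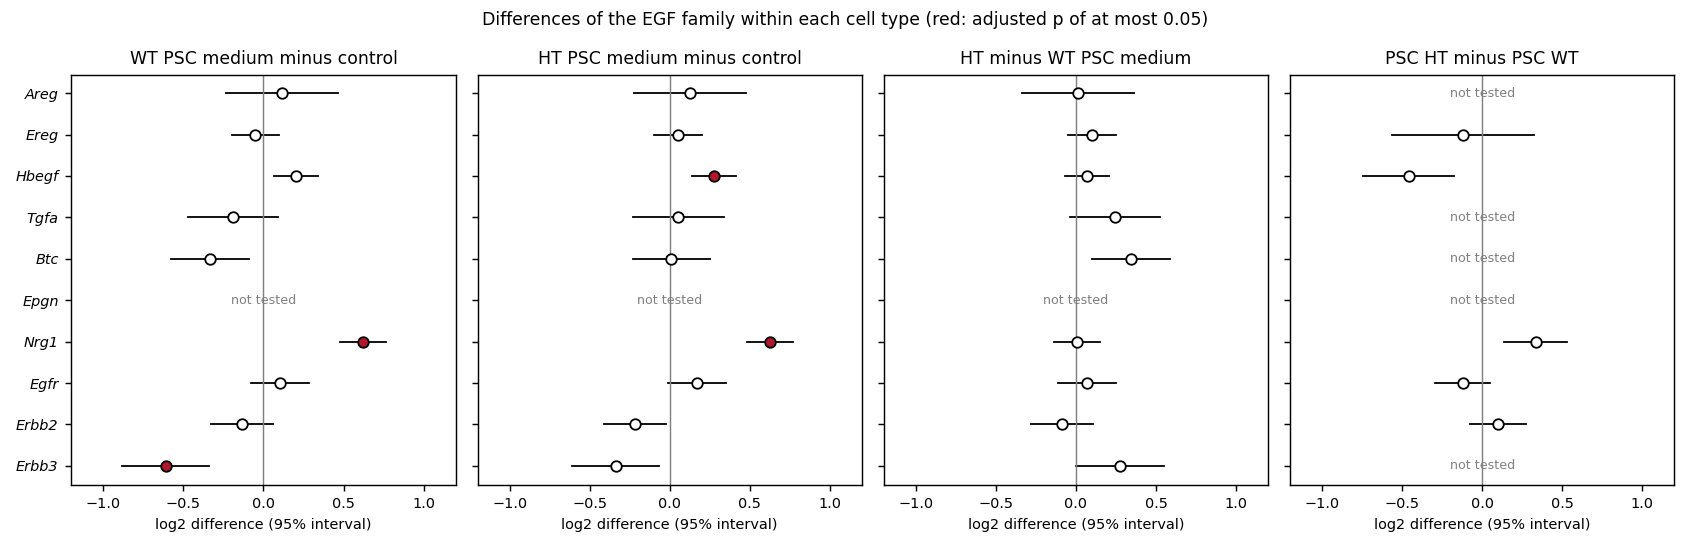
Differences (horizontal axes, log2, with 95% intervals, 3 arrays a group) for the 10 genes in the 3 comparisons of media and between the stellate cell genotypes. Red points passed the adjusted threshold: Nrg1 in both media, Erbb3 in PSC WT medium and Hbegf in PSC HT medium; none did between the media or between the genotypes.

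The genotype comparison asked whether heterozygous stellate cells supplied other ligands than wild-type ones. Of the 10 genes 5 were measured well enough to be tested, Ereg, Hbegf, Nrg1, Egfr and Erbb2, and none passed the threshold by limma, where 7.65% of all 20886 genes tested were called (2.93% higher and 4.71% lower). The arrays of the 2 genotypes did not overlap for 4 of the 5, all but Ereg, as was so for 28.7% of all genes tested. Both Hbegf and Nrg1 had an unadjusted p under 0.05, as had 21.9% of all genes tested. Areg, Tgfa, Btc, Epgn and Erbb3 were not well above background on all 3 arrays of either genotype.

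Nrg1 read 2.56, 2.55 and 2.57 on the PSC HT arrays, above all 3 PSC WT arrays at 2.24, 2.33 and 2.11. The difference was 0.33 ± 0.08 (log2, SE, 95% interval 0.14 to 0.53, adjusted p = 0.0625). Of its 5 probes 4 were positive, and the dim probe A_52_P158772 passed when tested by itself (0.65 ± 0.13, SE, adjusted p = 0.0372), where 7.43% of 31926 probes were called. Without the third PSC HT array the Nrg1 difference was 0.33 (adjusted p = 0.164).

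Hbegf went the other way, at 2.51, 2.17 and 2.33 on PSC HT and 2.95, 2.73 and 2.70 on PSC WT, a difference of -0.46 ± 0.12 (SE, 95% interval -0.75 to -0.17, adjusted p = 0.0727). It passed with the slide as a block (-0.54, adjusted p = 0.0256) and was -0.53 within slide 1 and -0.55 within slide 2. Its second probe differed by -0.66 (adjusted p = 0.134). Without the third PSC HT array the difference was -0.45 (adjusted p = 0.177). Ereg, Egfr and Erbb2 differed by -0.12, -0.12 and 0.10, with 95% intervals of -0.56 to 0.32, -0.29 to 0.05 and -0.07 to 0.27.

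Erbb3 is also a Schwann cell marker. It read -4.76, -5.05 and -3.10 on the PSC HT arrays, of which the first and the third were well above background, and was not tested there. The highest reading fell on the third array, the one with Cdh1 at -1.87. Macrophage markers summed higher on all PSC HT arrays than on all PSC WT arrays, as given above, and mesothelial markers lower (19.4 to 37.1 against 65.3 to 79.1). Endothelial markers summed to 0.453 to 0.528 against 1.79 to 2.03, with 4 to 7 of 9 measured, and Schwann cell markers to 2.27 to 3.02 against 6.22 to 7.78, with 5 or 6 of 8 measured. The median level of the Schwann cell list, which holds Erbb3 itself, went the other way, at -3.79 to -3.10 against -4.82 to -4.46 (log2). The part of these cell types in the Nrg1 and Hbegf differences was not tested.

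Release of the ligands depends on metalloproteases and their partners, for which 17 genes were listed. In PSC HT the list had 1 gene higher and 1 lower of 16 tested: the metalloprotease gene Adam8 rose by 2.40 ± 0.45 (log2, SE, adjusted p = 0.0273 by limma), and Timp3, whose product inhibits the ligand sheddase Adam17, fell by 1.22 (adjusted p = 0.000802). In that comparison 7.65% of all 20886 genes tested were called. Macrophage and leukocyte markers summed to 165 to 333 on the PSC HT arrays and 81.9 to 106 on the PSC WT arrays. The part of such cells in the Adam8 difference was not tested. The list's median was 0.05, against -0.00 over all genes tested. Without PSC WT array 2 or 3 the list had 1 called gene. In cancer cells Adam8 rose in both media, by 0.41 with PSC WT medium (adjusted p = 0.0444) and by 0.46 with PSC HT medium (0.0294), and Rhbdf2, a rhomboid-like protein that Adam17 needs to mature, rose by 0.35 with PSC HT medium (0.0342). Among 16 genes tested in each medium, 1 and 2 were thus called, where 5.75% and 5.42% of all genes were, so the count with PSC WT medium is near the share over all genes. With the replicate number as a block, or without WT medium array 2 or 3 or control array 2, no gene of the list was called with PSC WT medium, and none with PSC HT medium without HT medium array 1 or 3 or control array 2; without HT medium array 2 or control array 1 or 3, the HT medium count was 1. Over the 11 other settings the counts ran from 0 to 2 with PSC WT medium and from 0 to 4 with PSC HT medium, with 0 in both where dim genes were not filtered out.

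Genes that respond to ERK numbered 21, with 19 tested in the cancer cells. With PSC WT medium 3 rose and none fell: the AP-1 gene Fosb by 0.53 (adjusted p = 0.0099 by limma), the early response gene Ier3 by 0.40 (0.0193) and the ETS-family factor gene Elk3 by 0.33 (0.0311). With PSC HT medium 8 rose and none fell, led by the zinc-finger factor Egr1 at 0.72 (0.00276), Fosb at 0.63, Ier3 at 0.39 and Fos at 0.55. Of all genes tested, 2.84% were called higher with PSC WT medium and 3.03% with PSC HT medium. The list's median was 0.19 and 0.31 in the 2 media, against 0.04 and 0.02 over all genes tested. Between the media none of the 19 was called, and Egr1 and Fos were 0.48 and 0.36 higher with PSC HT medium. The count with PSC HT medium fell to 2 without HT medium array 1 or 3 or control array 1 or 2, and to 4 without HT medium array 2. With PSC WT medium it fell to 1 without WT medium array 3 or control array 1 or 2. Over the 11 other settings it ran from 0 to 4 with PSC WT medium and from 2 to 10 with PSC HT medium, both lowest where dim genes were not filtered out.

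Of 24 feedback inhibitors of ErbB and ERK signalling, 2 rose with PSC WT medium and 3 with PSC HT medium, and none fell, where 5.75% and 5.42% of all genes tested were called in either direction. Dusp5, a phosphatase that removes phosphate from ERK in the nucleus, rose by 0.48 and 0.67 (adjusted p = 0.00463 and 0.00144 by limma). Lrig1, a membrane protein that promotes loss of ErbB receptors, rose by 0.30 and 0.32 (0.0366 and 0.031). Errfi1, an inhibitor of the Egfr kinase, rose by 0.43 with PSC HT medium (0.0132), while with PSC WT medium its difference was 0.28 (0.0642). The count with PSC WT medium was 1 with the replicate number as a block, and 1 without any one of the 6 arrays other than WT medium array 2; with PSC HT medium it was 1 without HT medium array 3. In stellate cells 7.65% of all genes tested were called, and the same list had 1 gene higher and 2 lower of 24 in PSC HT. These were Errfi1 at 0.53 (0.016), the receptor phosphatase gene Ptprk at -0.55 (0.00905) and Dusp5 at -0.78 (0.0471). That count was 1 without PSC HT array 3 or PSC WT array 3, and over the 11 other settings it ran from 0, where dim genes were not filtered out, to 6 with the trend and robust setting of eBayes.

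AP-1 and cAMP-linked factors moved in both directions. In each medium 2 were called higher and 1 lower, where 5.75% (PSC WT medium) and 5.42% (PSC HT medium) of all genes tested were called. Of 12 genes, the stress-induced factor Atf3 rose by 0.61 and 0.69 and the AP-1 gene Junb by 0.44 and 0.40 in PSC WT and PSC HT medium, while Klf4, a Krüppel-like factor of epithelia, fell by 1.43 (adjusted p = 7.6e-05 by limma) and by 1.25 (0.00024). None of the 12 was called in PSC HT against PSC WT, where 7.65% of all genes tested were. In that comparison 1 of the 12 had an unadjusted p under 0.05, as had 21.9% of all genes tested. Epha2, an ephrin receptor on the ERK list, fell by 1.04 in PSC HT (0.00165), and Maff, a small Maf factor on the same list, rose by 0.33 (0.0476). That ERK count of 2, of 21 genes tested, fell to 1 without any one stellate array other than PSC WT array 1.

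The 23 adaptors and signal transducers that connect the receptors to ERK and to PI3 kinase, all measured, had no call in either medium or between the genotypes by limma. An unadjusted p under 0.05 was found for 4, 4 and 3 of them, against 20.2%, 19.7% and 21.9% of all genes tested. The smallest p in each was that of Pik3cb, a catalytic subunit of PI3 kinase, at 0.23, 0.26 and -0.45 (adjusted p = 0.0941, 0.0663 and 0.0671). Egf had the smallest p among the further family genes tested, 4 in each medium and 2 between the genotypes, at -0.45, -0.41 and -0.50 (adjusted p = 0.0611, 0.0851 and 0.0703).

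**Figure D5:**
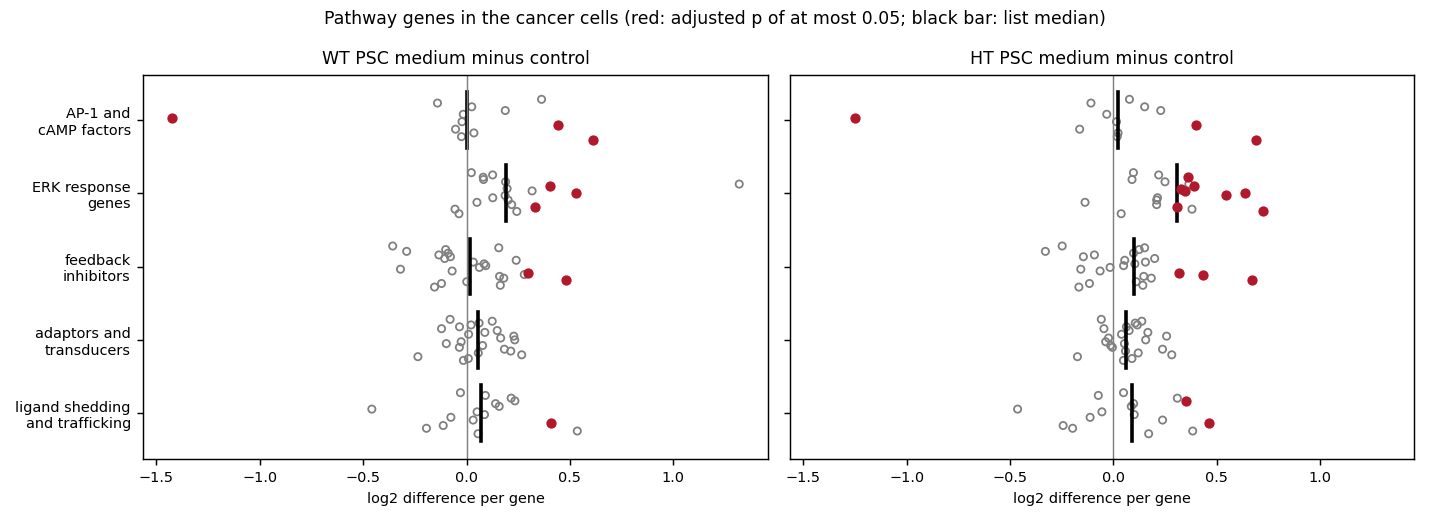
Difference of every tested gene of 5 pathway lists in cancer cells (horizontal axes, log2; each point 1 gene, black bars the list medians; vertical position within a row has no meaning), with PSC WT medium on the left and PSC HT medium on the right. Red points passed the adjusted threshold. The single low red point in the top row of both panels is Klf4, and 3 and 8 ERK response genes are red.

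The genes whose levels ran most like a member's were found by Pearson correlation, given as a description over arrays that share slides and, over all 15, the step between the cell types. Over 15 arrays Nrg1 ran closest to S1pr2 (r = 0.982) and Pim1 (0.979), Egfr to Magi2 (0.995) among the genes named, Areg to Syt16 (0.999) and Tnk1 (0.997), and Erbb3 to Cyp3a13 and Crisp3 (both 0.999). Hbegf ran closest to Procr and Gatm (both 0.998), Tgfa to Rundc3b (0.995) and Zfp850 (0.992), Btc to Cbx7 and Ngrn (both 0.998), and Erbb2 to Snhg20 (0.997) and Arrdc2 (0.996). Ereg, which had the smallest step between cell types, had the weakest closest genes, Unc5c (0.873) and Dusp4 (0.865). Within the 9 cancer cell arrays Nrg1 ran closest to Frmpd1 and Rhox5 (0.996 and 0.995), Erbb3 to Ddb2 and Vegfd (0.979 and 0.967), and Hbegf to Jdp2 and Ciart (0.980 and 0.978).

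Ordered by group mean, Nrg1 ran from PSC HT (2.56 ± 0.01, SD, n = 3) through PSC WT (2.23 ± 0.11), PSC HT medium (1.62 ± 0.04) and PSC WT medium (1.62 ± 0.06) to control cancer cells (1.00 ± 0.05), and only the 2 conditioned media overlapped. Egfr ran from PSC WT (4.06 ± 0.06) and PSC HT (3.94 ± 0.03) to the cancer cells at 3.00 ± 0.08, 2.94 ± 0.09 and 2.83 ± 0.10, whose neighbours overlapped. For Hbegf no neighbouring groups overlapped, from PSC HT medium (4.81 ± 0.04) and PSC WT medium (4.74 ± 0.01) through control cancer cells (4.54 ± 0.07) to PSC WT (2.80 ± 0.14) and PSC HT (2.34 ± 0.17). Erbb3 ran from control cancer cells (2.64 ± 0.23) through PSC HT medium (2.31 ± 0.06) and PSC WT medium (2.03 ± 0.14) to the stellate cells, again with no overlap between neighbours, and Erbb2 from 3.72 ± 0.16 in control cancer cells to 1.93 ± 0.04 in PSC WT. For Areg and Tgfa neighbours within each cell type overlapped, except that no cancer array met a stellate array.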

How the data were processed

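Arrays were scanned in 1 colour (Cy3), and per the file headers the deposited intensity is the processed signal of Agilent Feature Extraction 10.7.3.1, background subtracted and not scaled between arrays. Positions in the files are in build mm9. Log2 intensity minus each array's 75th percentile over 56605 probes (spots of a probe averaged) was computed; the percentile lay between 611 and 965 signal units. The scanner software marked 54.3% to 63.8% of spots as above background. The deposited series matrix holds the authors' log2 values, prepared in a way not given in the sources used here, and served as an alternative. Gene names were updated through RefSeq, and 12867 probes kept the name in the file. The probe with the highest mean stood for a gene, and genes entered a test where some group of the fit had this mark on each of its arrays. Group differences came from limma 3.58.1 (R 4.3.3), run over all such genes, with Benjamini-Hochberg adjustment and a threshold of 0.05. The 6 stellate arrays, the 9 cancer cell arrays, and PSC WT with control cancer cells were 3 separate fits, checked on simulated data. The main fits had no pairing, and the replicate number served as a block in an alternative only. Same-numbered arrays of PSC WT medium and control deviated together (correlations 0.206, 0.252 and 0.221), which is from the data and not from the labels. Of the 6 differently numbered combinations, 3 correlated as much (0.222, 0.224 and 0.210) and 3 lay between -0.456 and -0.424, so the correlations do not single out the numbering; pairs of the other comparisons did not all exceed 0.1. Members, gene lists and tests were chosen with earlier results of these data known. Named were all members, up to 4 called genes of a list by smallest p (or the 1 with the smallest p), and the 2 genes most correlated with a member, of which 1 is not reported here. Testing each probe by itself was added after the data were seen. The number of arrays limits the precision.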

Additional observations from a re-analysis of the deposited data

How the results depend on the processing

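Of 41 results for single members, 13 were called, and 10 of these were called under every alternative run. Among the 10 were Areg, Tgfa, Btc and Erbb3 between cell types, which entered the main fit through the cancer cell arrays alone. The other 3 were Ereg between cell types, Erbb3 with PSC WT medium and Hbegf with PSC HT medium. Ereg gave an adjusted p (limma) of 0.0963 without the filter on dim genes and 0.0593 with the replicate number as a block. Erbb3 gave 0.0876 without the filter, 0.0594 with the mean over probes and 0.0649 with only the 2 groups fitted. Hbegf gave 0.0813 with quantile normalization, 0.1707 without the filter, 0.0721 with the replicate block and 0.117 with only the 2 groups, and with the mean over probes its difference turned to -0.16. Between the media the mean over probes turned Hbegf to -0.27. The Hbegf and Nrg1 differences between stellate genotypes were called in 6 and 2 of 18 alternatives.

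In PSC HT against PSC WT, 398 genes were called without the filter, 2405 with all 15 arrays in 1 fit, and 565 to 1266 without 1 replicate (565 without PSC WT array 3). The member count was 1 with normexp background (offset 50), quantile normalization, the slide as a block or the authors' series matrix, and 2 with the trend and robust setting of eBayes or all 15 arrays. With PSC WT medium, 423 genes were called without the filter, 754 with the mean over probes and 556 to 945 without 1 replicate; the member count was 1 without the filter, with the mean over probes or with only the 2 groups, and 1 to 2 without 1 replicate. With PSC HT medium, 307 genes were called without the filter, 638 with the mean over probes, 526 with only the 2 groups and 490 to 845 without 1 replicate; the member count was 1 under each of these, with quantile normalization, with the replicate block and with each probe tested by itself. Between the media, 1 gene was called with normexp, trend and robust, the series matrix or only the 2 groups, and 1 to 6 without 1 replicate. Between cell types, 5 members were called where only genes well above background on every array were kept, since only those 5 were then tested, and 23547 probes were called with each probe tested by itself.

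Differences that were not called turned sign under some settings. Btc with PSC HT medium turned to -0.013 with normexp, -0.0036 with median scaling and -0.0075 with the series matrix, and ran from -0.090 to 0.097 without 1 replicate. Tgfa with PSC HT medium turned to -0.060 with the mean over probes and ran from -0.012 to 0.157 without 1 replicate. Areg between the media turned to -0.0016 with normexp and -0.0057 with the slide block. Without 1 replicate Areg ran from -0.050 to 0.083 between the media, from -0.048 to 0.266 with PSC HT medium and from -0.060 to 0.255 with PSC WT medium, Ereg from -0.28 to 0.020 between genotypes, and Nrg1 from -0.031 to 0.029 between the media.

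The replicate block left 923 genes and both members with PSC WT medium. In the other comparisons the block gave 760 genes with PSC HT medium (4 ERK response and 0 shedding genes), 1192 between genotypes, 14314 between cell types and 0 between the media. Apart from alternatives built to test fewer genes or samples, the cause was not tested. Dim signal limits Areg, Tgfa, Btc, Epgn and Erbb3 in stellate cells.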
